A study of Rattus norvegicus with 9 samples.

Results

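Fibrillar collagens are the rope-forming proteins of connective tissue, and the genes described here code for their chains. The members were chosen by symbol, as the rows of the deposited expression table for the chains of collagen types I, II, III, V, XI, XXIV and XXVII: Col1a1, Col1a2, Col2a1, Col3a1, Col5a1, Col5a2, Col5a3, Col11a1, Col24a1 and Col27a1. All 10 were found among the 17602 genes listed, and all 10 passed the filter on low values. RNA was sequenced from wild-type male Lewis rats of 10 to 12 weeks of age, with 3 libraries in each of 3 groups. The intact group was synovium, the lining of the joint, from around the medial meniscus of knees without surgery. Sham samples were synovium of that site 1 week after the joint capsule was opened and closed. The pMx group was tissue regrowing 1 week after a partial medial meniscectomy (pMx), in which the anterior part of the medial meniscus was removed. That tissue was cut at its visible border with the remaining meniscus, and the surrounding synovium was taken off. Between pMx and sham both the operation and the tissue taken were different, and their parts in a difference cannot be told apart. The labels call the libraries biological replicates without saying whether each came from its own rat, and surgery was done on both knees, so the p-values measure the spread between these samples.

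A fibrillar procollagen is made of 3 chains that wind into a long triple helix in the endoplasmic reticulum. After secretion its end pieces are cut off, the molecules line up into fibrils, and lysine-derived cross-links hold the fibrils together. Types I, II and III form the body of the fibrils, with type I dominant in tendon, bone, skin and the outer meniscus, type II in cartilage, and type III in pliable and healing tissue. Types V and XI sit inside the fibrils, start their assembly and limit their width. Types XXIV and XXVII are later-described members with shorter helices, known from developing bone and cartilage.

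Levels are given in TPM, which count transcripts after scaling by transcript length to a total of 1000000 in each library and can be compared between genes. Differences were tested on log2(TPM + 1) with limma over all 9 libraries and all 16512 genes above 0 TPM in at least 3 libraries. A gene was called when its adjusted p was below 0.05 and its log2 fold change was above 1 or below -1. TPM keep no read numbers, so the depth of the libraries is unknown and the errors given come from the spread between libraries. The standard errors from limma use a spread estimated from all 3 groups, also where a comparison involves only some of them. Intact replicate 3 stood apart from the others, because the summed level of 14 skeletal muscle genes was 53440 TPM there against 87.73 to 3717 TPM in the other 8 libraries. The synovial lining genes Prg4, Clic5 and Htra4 were at 1245 to 2986, 157 to 503 and 549 to 1431 TPM in the intact and sham libraries, which are labelled as synovium.

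Most of the fibrillar collagen genes were higher after sham surgery than in intact tissue, and most were higher in the regenerating tissue than after sham surgery. In sham versus intact, 7 of the 10 were called higher and none lower, where 1.42% of all genes tested were called higher and 0.533% lower. In pMx versus sham, 8 of the 10 were called higher and none lower, beside 3.36% and 4.85% of all genes. In pMx versus intact, 9 of the 10 were called higher and none lower, beside 6.4% and 7.89% of all genes. In either direction 1.96%, 8.21% and 14.3% of all genes were called in these comparisons. Every sham library lay above every intact library for 7 of the 10 genes, beside 14.2% of all genes tested. Every pMx library lay above every sham library for 9 of the 10, beside 27% of all genes, and above every intact library for 9 of the 10, beside 26.9%. The comparisons share libraries, so their counts are not independent. The median log2 fold change of the 10 genes was 1.31 in sham versus intact, 1.79 in pMx versus sham and 3.06 in pMx versus intact, and that of all genes tested was -0.02, -0.01 and -0.03. Col2a1 was the gene called in none of the comparisons. At an unadjusted p below 0.05 from limma, 0 of the 10 were lower in each comparison, and 7, 9 and 9 were higher. All genes were not counted at that threshold, so unadjusted counts here and below have no share of all genes beside them. At an adjusted p below 0.05 alone, 7, 9 and 9 of the 10 passed, beside 2097, 6046 and 8350 of the 16512 genes tested. Without intact replicate 3 the counts of genes called at both thresholds were 6, 8 and 9 in the same order. In fits on the 6 libraries of each comparison they were 5, 8 and 9. In whole tissue, fewer cells of a type and less RNA per cell cannot be told apart.

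**Figure D1:**
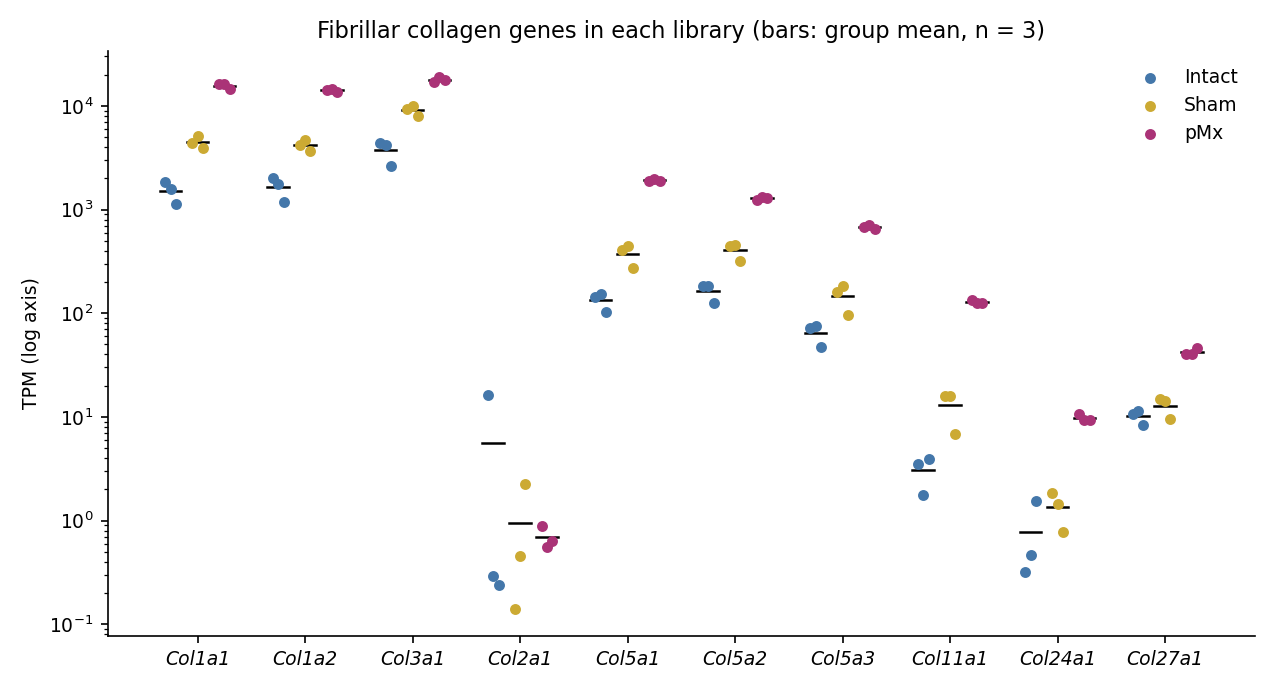
TPM of the 10 fibrillar collagen genes on a log axis, with 1 point for each library and a black bar at the mean of each group (n = 3). For every gene but Col2a1, the 3 pMx points lie above all sham and intact points.

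Col1a1 and Col1a2 code for the chains of type I collagen, which joins a pair of α1 chains with a single α2 chain. Values are given in the order of replicates 1 to 3 throughout. Col1a1 (gene identifier 29393) measured 1842, 1579 and 1128 TPM in intact tissue, 4419, 5129 and 3954 TPM after sham surgery and 16198, 16334 and 14475 TPM after pMx. The groups did not overlap, and the lowest pMx library was still far above the highest sham library. From intact to sham the log2 fold change of Col1a1 was 1.59 (SE, the standard error, 0.19, limma adjusted p = 0.00397), and from sham to pMx it was 1.81 (SE 0.19, adjusted p = 1.96e-04). The mean of the pMx group was 10.3 times that of the intact group. Col1a2 (gene identifier 84352) measured 1995, 1753 and 1189 TPM in intact tissue, 4171, 4708 and 3642 TPM after sham surgery and 14136, 14671 and 13547 TPM after pMx. These groups also stood apart, with log2 fold changes of 1.37 (SE 0.19, limma adjusted p = 0.00600) in sham versus intact and 1.77 (SE 0.19, adjusted p = 2.44e-04) in pMx versus sham. In the pMx libraries Col1a1 ranked second of all genes and Col1a2 ranked between 3 and 4, whereas in the intact libraries their ranks lay between 89 and 148.

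The 250 bases before the annotated starts of the fibrillar collagen genes were searched for 3 short core promoter motifs on both strands. RefSeq windows of the assembly GRCr8, which is not the build named for the expression values, were matched for 7 of the 10 genes; Col1a1, Col3a1 and Col2a1 were not among them. CCAAT, the site read by the factor NF-Y, was found for 3 of the 7 genes (Col1a2, Col5a3 and Col11a1) and in 34.0% of all 33469 windows. TATAAA was found for Col1a2 alone of the 7 and in 12.9% of windows. GGGCGG, the GC box read by the SP1 family, was found for 5 of the 7 (Col5a1, Col5a3, Col11a1, Col24a1 and Col27a1) and in 30.5% of windows. Col24a1 has 3 windows and was counted where any held the motif. The stretches that hold CCAAT are printed for Col1a2, Col5a3 and Col11a1 as examples. Col5a1, Col5a2, Col24a1 and Col27a1 were also called in pMx versus sham and had no CCAAT in these windows. Capitals mark CCAAT or its reverse complement ATTGG and, for Col1a2, also TATAAA.
Col1a2, chr4:33518307-33518394, plus strand: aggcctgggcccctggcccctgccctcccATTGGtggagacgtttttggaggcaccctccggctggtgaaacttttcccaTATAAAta
Col5a3, chr8:27626113-27626142, minus strand: gaccttagccagCCAATcagcgcgtggtgc
Col11a1, chr2:204509047-204509076, plus strand: gggaggcctgtgATTGGgtatggccttcag
In Col1a2 the ATTGG began 51 bases before the TATAAA, which itself began 170 bases before the annotated start. The CCAAT of Col5a3 began 182 bases before the annotated start, and the ATTGG shown for Col11a1 began 77 bases before it, with another ATTGG at 230 bases. These matches are descriptions of the reference sequence and were not measured as binding.

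Col3a1 codes for the single chain of type III collagen, a homotrimer laid down early in wound repair. It (gene identifier 84032) measured 4365, 4218 and 2633 TPM in intact tissue, 9232, 10033 and 8055 TPM after sham surgery and 16967, 18829 and 17627 TPM after pMx. No library of a group overlapped with the next, and Col3a1 had the highest TPM of all genes in every pMx library. Its log2 fold change of 1.31 in sham versus intact passed both thresholds (SE 0.21, limma adjusted p = 0.00863). In pMx versus sham its adjusted p was 0.00698, but its log2 fold change of 0.97 (SE 0.21) fell just short of the threshold of 1. Of the 9 genes other than Col2a1 it had the smallest log2 fold change in that comparison, and its pMx mean was 1.96 times its sham mean. It passed the fold-change threshold when the libraries were rescaled without muscle markers and collagen genes (1.03), without sham replicate 2 (1.04) or without pMx replicate 1 (1.01). With quantile normalization its log2 fold change was 0.47 (SE 0.24) and the adjusted p from limma was 0.155.

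Col2a1 codes for the chain of type II collagen, the main collagen of hyaline cartilage and of the inner meniscus. It (gene identifier 25412) measured 16.14, 0.29 and 0.24 TPM in intact tissue, 0.14, 0.46 and 2.26 TPM after sham surgery and 0.89, 0.56 and 0.64 TPM after pMx. All groups overlapped, 8 libraries were below 3 TPM and the highest value was that of intact replicate 1. The log2 fold change in pMx versus sham was -0.06 (SE 0.92, limma adjusted p = 0.972) and -0.78 in sham versus intact (SE 0.92, adjusted p = 0.634). Without intact replicate 1 the latter was 0.47. In the fit on the 6 libraries of pMx versus sham, which leaves out the intact group, the SE was 0.37. Intact replicate 1 also had the highest intact level of the cartilage markers Ucma (91.67 TPM) and Comp (648.73 TPM), the former the highest of all libraries. Its level of Col9a1, a type IX collagen chain of cartilage, was the lowest of the intact group, at 0.53 TPM. Of the 12 cartilage markers tested, 2 were called higher and 1 lower in pMx versus sham, with a median log2 fold change of 0.03. At an unadjusted p below 0.05 from limma, 4 of them were higher and 3 lower. The median lies between Col9a2 and Col10a1, which were below 1 TPM in every library, where the added 1 TPM reduces any change. The summed level of the 12 markers was 286 to 751 TPM in intact libraries and 527 to 623 TPM in sham libraries. In pMx libraries it was 978 to 1186 TPM. Comp made up most of this sum in each group and was not called in pMx versus sham (log2 fold change 0.71, limma adjusted p = 0.0865). Acan, the cartilage proteoglycan aggrecan, and Hapln1, its link protein, were the markers called higher, with log2 fold changes of 3.43 and 1.50. Matn3 was at 0.93, under the threshold of 1. Ucma, a cartilage matrix protein, was called lower (-3.07). Acan was also called higher in sham versus intact, by 3.44 (limma adjusted p = 0.00787). Hapln1 was not called in pMx versus intact (0.69, limma adjusted p = 0.0819). Cnmd, which codes for chondromodulin, was listed at 0 TPM in every pMx library, and Col10a1, a marker of hypertrophic cartilage, was at 0 or 0.04 TPM there.

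The regulatory type V chains rose with type I. Type V collagen is found within type I fibrils, mostly as a heterotrimer of α1 and α2 chains, and its loss gives thick and irregular fibrils. Col5a1 (gene identifier 85490) measured 143, 154 and 102 TPM in intact tissue, 404, 447 and 274 TPM after sham surgery and 1885, 1948 and 1883 TPM after pMx. The groups did not overlap, and the pMx mean was 5.08 times the sham mean. The log2 fold change was 1.48 in sham versus intact (SE 0.20, limma adjusted p = 0.00523) and 2.37 in pMx versus sham (SE 0.20, adjusted p = 7.26e-05). Col5a2 (gene identifier 85250) measured 183, 181 and 127 TPM in intact tissue, 448, 450 and 319 TPM after sham surgery and 1246, 1308 and 1288 TPM after pMx. It stood above Col5a1 in all intact and sham libraries and below it in all pMx libraries. Sham versus intact gave a log2 fold change of 1.31 for Col5a2 (limma adjusted p = 0.00497) and pMx versus sham gave 1.67 (adjusted p = 1.75e-04), each with an SE of 0.17. Col5a3 (gene identifier 60379), which codes for a type V chain of more limited tissue range, measured 71.53, 75.73 and 46.97 TPM in intact tissue, 161, 181 and 96.98 TPM after sham surgery and 678, 713 and 653 TPM after pMx. The groups of Col5a3 did not overlap either, and its log2 fold changes were 1.15 in sham versus intact (SE 0.24, limma adjusted p = 0.0219) and 2.26 in pMx versus sham (SE 0.24, adjusted p = 2.24e-04). The sham versus intact call of Col5a3 was lost in the fit on 6 libraries (adjusted p = 0.0747 from limma) and without intact replicate 3 (log2 fold change 0.93), sham replicate 1 (adjusted p = 0.0781) or sham replicate 2 (adjusted p = 0.0802).

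Col11a1 had the largest fold change of the 10 genes. It codes for the α1 chain of type XI collagen, which starts fibril assembly in cartilage and is also made by other mesenchymal cells, where it can join type V chains. Col11a1 (gene identifier 25654) measured 3.54, 1.77 and 3.95 TPM in intact tissue, 15.92, 15.83 and 6.88 TPM after sham surgery and 135, 126 and 124 TPM after pMx. The groups did not overlap, and the pMx mean was 9.97 times the sham mean and 41.6 times the intact mean. The log2 fold change was 1.72 in sham versus intact (SE 0.32, limma adjusted p = 0.0134) and 3.30 in pMx versus sham (SE 0.32, adjusted p = 1.33e-04). Sham replicate 3 was less than 7 TPM, and without sham replicate 1 or 2 the sham versus intact call was lost (adjusted p = 0.0535 and 0.0561 from limma), as it was in the fit on 6 libraries (0.0583). Col11a2 is the remaining fibrillar chain gene and not one of the 10; it was looked at after the values of Col11a1 were seen. It was at 0.53 to 3.81 TPM in intact libraries, 1.02 to 2.64 TPM in sham libraries and 2.35 to 3.32 TPM in pMx libraries, and the groups overlapped.

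Col24a1 and Col27a1 were called higher in pMx versus sham and in pMx versus intact, while their sham and intact libraries overlapped. Col24a1 (gene identifier 499723) measured 0.32, 0.47 and 1.55 TPM in intact tissue, 1.85, 1.45 and 0.77 TPM after sham surgery and 10.56, 9.39 and 9.32 TPM after pMx. The lowest pMx library was above 9 TPM and the highest of the others below 2 TPM. Its log2 fold change in pMx versus sham was 2.22 (SE 0.26, limma adjusted p = 3.29e-04) and 0.44 in sham versus intact (SE 0.26, adjusted p = 0.308). At these low levels the added 1 TPM reduced the change: in pMx versus sham it was 2.83 with 0.1 TPM added and 2.92 with 0.01 TPM added, and the pMx mean was 7.19 times the sham mean. Col27a1 (gene identifier 298101) measured 10.59, 11.31 and 8.41 TPM in intact tissue, 14.83, 14.23 and 9.45 TPM after sham surgery and 39.98, 40.14 and 46.15 TPM after pMx. The pMx mean of Col27a1 was 3.28 times the sham mean. The log2 fold change in pMx versus sham was 1.66 (SE 0.17, limma adjusted p = 1.79e-04) and 0.30 in sham versus intact (SE 0.17, adjusted p = 0.285). The bone markers Bglap and Sost, which mark osteoblasts and osteocytes, were at most 1.38 TPM in every library. Other bone markers were higher: Phex, an osteocyte peptidase, was at 5.44 to 10.31 TPM in intact libraries, and Alpl at 7.89 to 9.54 TPM in pMx libraries. Phex was called lower in pMx versus sham (-2.22) and the factor Sp7 higher (1.58). Alpl was at 0.94 there (limma adjusted p = 2.51e-04), under the threshold of 1, and was called higher in pMx versus intact (1.05). The bone markers thus went in both directions. The summed level of the 9 bone markers was 17.14 to 22.32 TPM in intact libraries and 15.85 to 16.77 TPM in sham libraries. In pMx libraries it was 17.22 to 19.64 TPM.

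**Figure D2:**
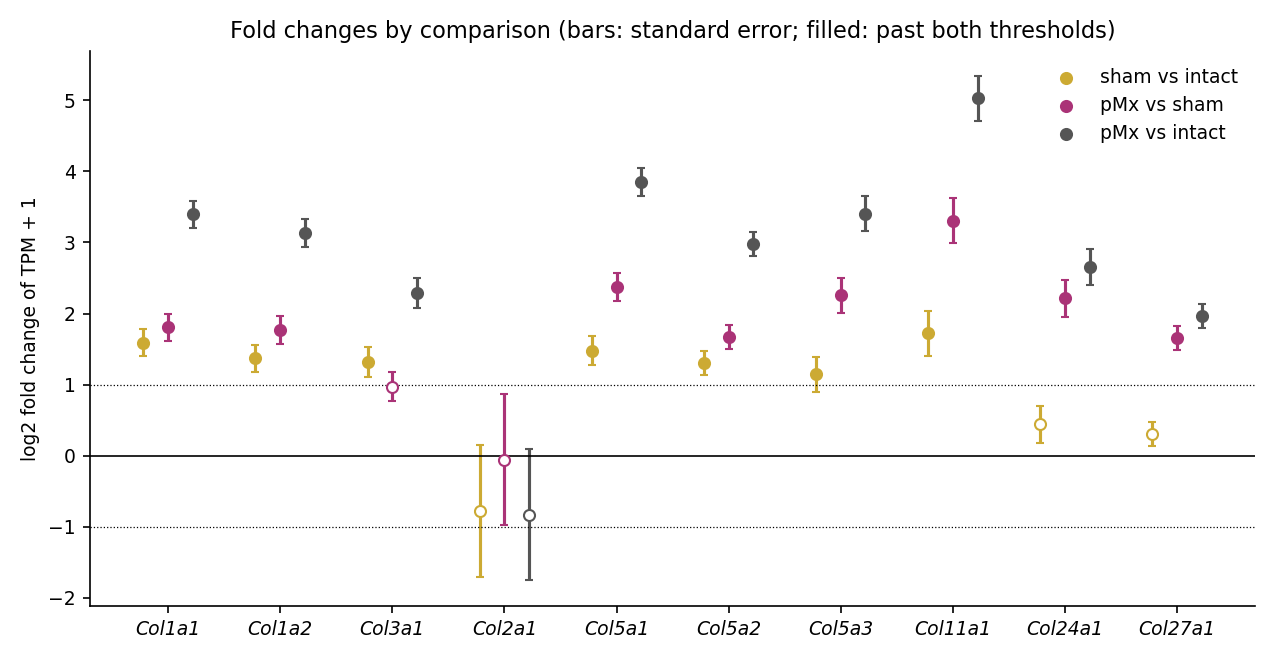
Log2 fold changes of TPM + 1 of the 10 genes in the 3 comparisons, with bars for the SE from limma and dotted lines at the fold-change threshold; filled points passed both thresholds. Col11a1 had the highest values (1.72, 3.30 and 5.03), Col3a1 in pMx versus sham lay just under the line at 0.97, and the points of Col2a1 are open in all comparisons.

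Together, the 10 genes made up 0.863%, 0.797% and 0.524% of all TPM in intact tissue, 1.89%, 2.10% and 1.64% after sham surgery and 5.13%, 5.40% and 4.97% after pMx. The groups did not overlap. The mean share was 0.728% ± 0.180 in intact libraries, 1.87% ± 0.231 in sham libraries and 5.16% ± 0.218 in pMx libraries (SD, n = 3 libraries each). Without intact replicate 3 the difference between sham and intact was 1.04 percentage points, against 1.15 with it. Among all collagen chain genes listed, the fibrillar chains took 75.7% ± 1.49 of collagen TPM in intact libraries, 82.4% ± 0.503 in sham libraries and 85.2% ± 0.808 in pMx libraries (SD, n = 3 libraries each), and the groups did not overlap. The summed TPM of the other collagen genes was also higher in each step, at 2324 ± 477, 4004 ± 538 and 8983 ± 431 TPM (SD, n = 3 libraries each).

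The make-up of the fibrillar pool shifted from type III toward type I and type V. Col3a1 took 51.2% ± 1.43 of the fibrillar TPM in intact libraries, 48.7% ± 0.744 in sham libraries and 34.5% ± 1.26 in pMx libraries (SD, n = 3 libraries each). Col1a1 took 20.9% ± 0.947, 24.0% ± 0.531 and 30.3% ± 1.21 in the same order. Col1a2 held 22.6% ± 0.572 and 22.3% ± 0.169 in the intact and sham groups, whose ranges overlapped, and 27.3% ± 0.196 in the pMx group. The 3 type V genes together took 5.01% ± 0.359, 4.91% ± 0.610 and 7.49% ± 0.184. The remaining genes, Col2a1, Col11a1, Col24a1 and Col27a1, summed to 0.174% to 0.355% in the intact libraries, 0.118% to 0.174% in the sham libraries and 0.326% to 0.364% in the pMx libraries.

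**Figure D3:**
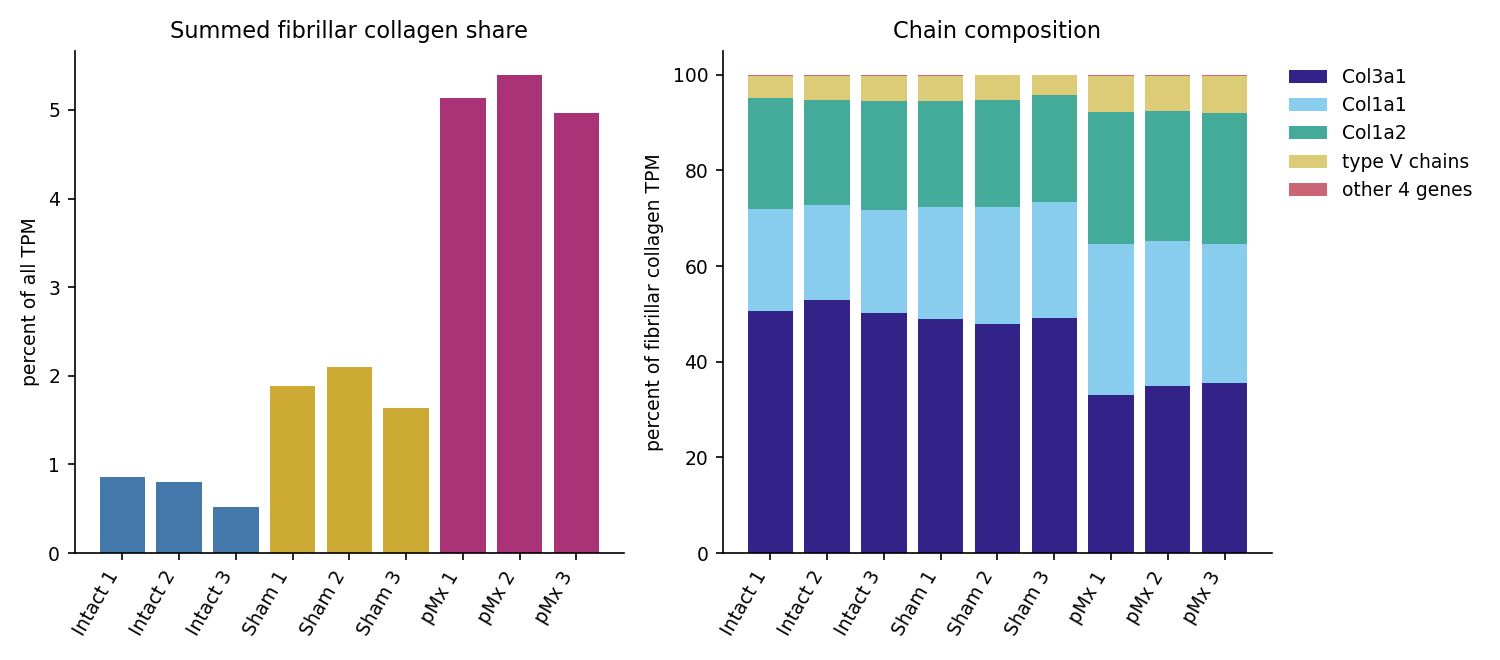
Left, the share of all TPM taken by the 10 genes in each library, in percent; right, how that pool divides among Col3a1, Col1a1, Col1a2, the 3 type V genes and the other 4 genes, in percent. The pMx bars reach 4.97% to 5.40%, and the Col3a1 part falls from about 51.2% of the pool in the intact group to 34.5% in the pMx group.

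A ratio of chain levels within a library does not depend on the total to which the library is scaled, so 9 ratios were compared across the groups. The 3 groups were permuted together in an exact permutation test over 1680 arrangements, whose smallest possible p is 0.00357, with Benjamini-Hochberg adjustment over the 9 ratios; 3 libraries against 3 alone could not go below p = 0.1. The ratio of Col3a1 to Col1a1 was 2.37, 2.67 and 2.34 in the intact libraries, 2.09, 1.96 and 2.04 in the sham libraries and 1.05, 1.15 and 1.22 in the pMx libraries. It thus fell in each step without overlap, and most between sham and pMx (exact permutation p = 0.00357, adjusted p = 0.0161). The ratio of Col5a2 to Col5a1 was 1.28, 1.17 and 1.24 in the intact libraries, 1.11, 1.01 and 1.16 in the sham libraries and 0.661, 0.672 and 0.684 in the pMx libraries. The groups again did not overlap, and the ratio crossed 1 between sham and pMx (exact permutation p = 0.00357, adjusted p = 0.0161).

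The ratio of Col5a3 to Col5a1 was 0.459 to 0.502 in intact libraries, 0.353 to 0.406 in sham libraries and 0.347 to 0.366 in pMx libraries (exact permutation adjusted p = 0.0241), with sham and pMx overlapping and both below the intact group. The ratio of Col1a1 to Col1a2 was 0.901 to 0.949 in intact libraries, 1.06 to 1.09 in sham libraries and 1.07 to 1.15 in pMx libraries (exact permutation adjusted p = 0.0241). Col1a2 thus exceeded Col1a1 in all intact libraries, and Col1a1 exceeded Col1a2 in all the others. The ratio of Col5a1 to Col1a1 was 0.0774 to 0.0978 in intact libraries, 0.0694 to 0.0914 in sham libraries and 0.116 to 0.130 in pMx libraries (exact permutation adjusted p = 0.0375), with the pMx group above both others. The ratio of Col27a1 to Col1a1 fell from 0.00575 to 0.00746 in intact libraries to 0.00239 to 0.00336 in sham libraries and 0.00246 to 0.00319 in pMx libraries (exact permutation adjusted p = 0.0375). Both operated groups lay below the intact group and overlapped with each other. The ratio of Col11a1 to Col5a1 was 0.0115 to 0.0386 in intact libraries, 0.0251 to 0.0394 in sham libraries and 0.0647 to 0.0717 in pMx libraries (exact permutation adjusted p = 0.0459), but the call was lost in 6 of the 9 tests that each left out a library (highest adjusted p = 0.0873). With each pMx library left out the ratio of Col5a1 to Col1a1 also lost its call (highest adjusted p = 0.0804), and that of Col27a1 to Col1a1 did so without pMx replicate 1 or 2 (adjusted p = 0.0536). The ratios of Col2a1 and Col24a1 to Col1a1 did not pass the threshold (exact permutation adjusted p = 0.117 and 0.371); without intact replicate 3, where Col24a1 was highest of the intact group, the latter passed (adjusted p = 0.0402). The direction of the Col24a1 ratio was not stable: its log2 difference of pMx from intact was 0.59, 1.45 without intact replicate 3, -0.039 without intact replicate 1 and -0.74 with 1 TPM added to both chains. In that last case the test of the 3 groups together passed (exact permutation adjusted p = 0.0214).

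**Figure D4:**
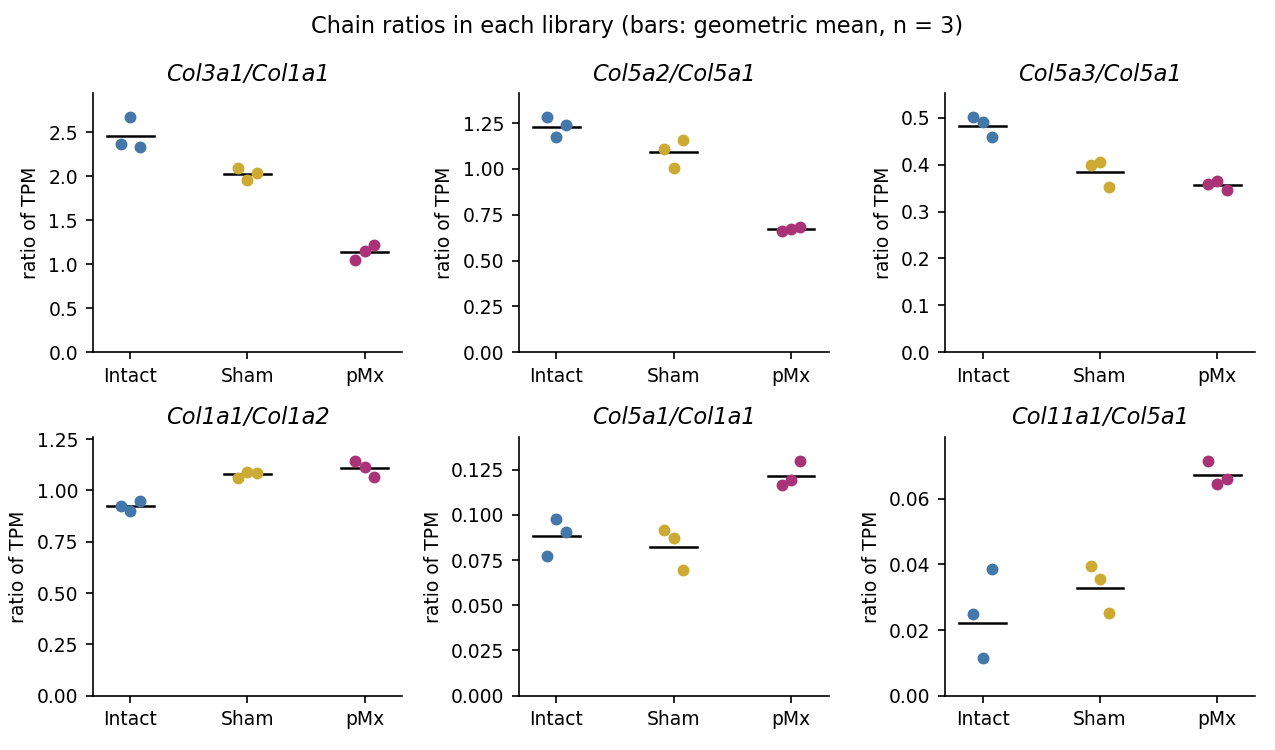
Ratios of TPM between pairs of chains in each library, with 1 point for each library and a bar at the geometric mean of each group (n = 3); every axis starts at 0. Col3a1/Col1a1 and Col5a2/Col5a1 fall in each step from intact to pMx, and Col5a1/Col1a1 and Col11a1/Col5a1 are highest in the pMx group.

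Within the intact and sham groups 1 library was lowest for most of the chains, as it was for many other genes. In the intact group replicate 3 was the lowest library for 8 of the 10 genes and for 60.5% of all genes tested, with a median ratio of 0.674 to the mean of the other intact libraries. Col24a1 and Col11a1 were the exceptions and were highest there. Scx, a tendon transcription factor, was at 15.62 TPM in that library against 1.97 and 2.16 TPM in the other intact libraries; the part of muscle and tendon tissue in these values was not tested. In the sham group replicate 3 was the lowest library for 9 of the 10 genes and for 46.5% of all genes tested, with a median ratio of 0.680 to the mean of the other sham libraries. Col2a1 was the exception, and was highest there. The pMx libraries were the most alike, with median ratios between 0.946 and 1.03, and the lowest of them was replicate 1 for 3 genes, replicate 2 for 1 gene and replicate 3 for 6 genes. The coefficient of variation of Col1a1 was 23.8% in intact libraries, 13.2% in sham libraries and 6.61% in pMx libraries, and that of Col5a1 was 20.5%, 23.9% and 1.94%.

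By level, the genes kept a similar order in all groups, led by Col3a1 with the type I chains next. In the intact group the order was Col3a1, Col1a2, Col1a1, Col5a2, Col5a1, Col5a3, Col27a1, Col2a1, Col11a1 and Col24a1. The ranges overlapped there between Col1a2 and Col1a1, between Col5a2 and Col5a1 and between Col2a1 and each of its neighbours. In the pMx group the order was Col3a1, Col1a1, Col1a2, Col5a1, Col5a2, Col5a3, Col11a1, Col27a1, Col24a1 and Col2a1, and Col1a1 and Col1a2 were the neighbours whose ranges overlapped. Col11a1 thus moved past Col27a1, from 3.09 ± 1.16 against 10.1 ± 1.51 TPM in the intact group to 128 ± 5.89 against 42.1 ± 3.52 TPM in the pMx group (SD, n = 3 libraries each). In the sham group these genes were at 12.9 ± 5.19 and 12.8 ± 2.95 TPM and overlapped.

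Profiles were compared with 13190 other genes of at least 1 TPM on average, by the root mean square difference of log2(TPM + 1) over the 9 libraries after each gene was centred on its own mean. The genes nearest to Col1a1 were Postn, which codes for the matrix protein periostin (difference 0.14 on the log2 scale), and Lrrc17 (0.14). Postn was at 321 TPM in intact libraries, 1141 TPM in sham libraries and 3664 TPM in pMx libraries on average. Aldh1l2, a mitochondrial folate enzyme, was nearest to both Col1a2 (0.11) and Col5a2 (0.11), with Thy1, a fibroblast surface protein, and Tmem119 second. The genes nearest to Col3a1 were Col6a2 and Col6a1 (0.12 and 0.14), which code for chains of beaded-filament collagen VI. Ptk7, a cell-surface pseudokinase, was nearest to Col5a1 (0.13) and Col5a3 (0.12), with Col16a1 and Uchl1 second. Chsy1, a chondroitin sulfate synthase, was among the nearest to Col27a1 (0.10), and Mpp6 and Shisa2 were nearest to Col24a1 (0.23 and 0.25). Col11a1 had no gene as near, the closest being Plekhg4 (0.39) and the metalloprotease gene Adam12 (0.41). For Col2a1 the nearest, the Wnt antagonists Frzb and Wif1, differed by 0.70 and 0.71. Among the 10 genes themselves the most alike pair was Col1a2 and Col5a2 (0.11), and Col1a1 was nearest to Col1a2 (0.12).

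**Figure D5:**
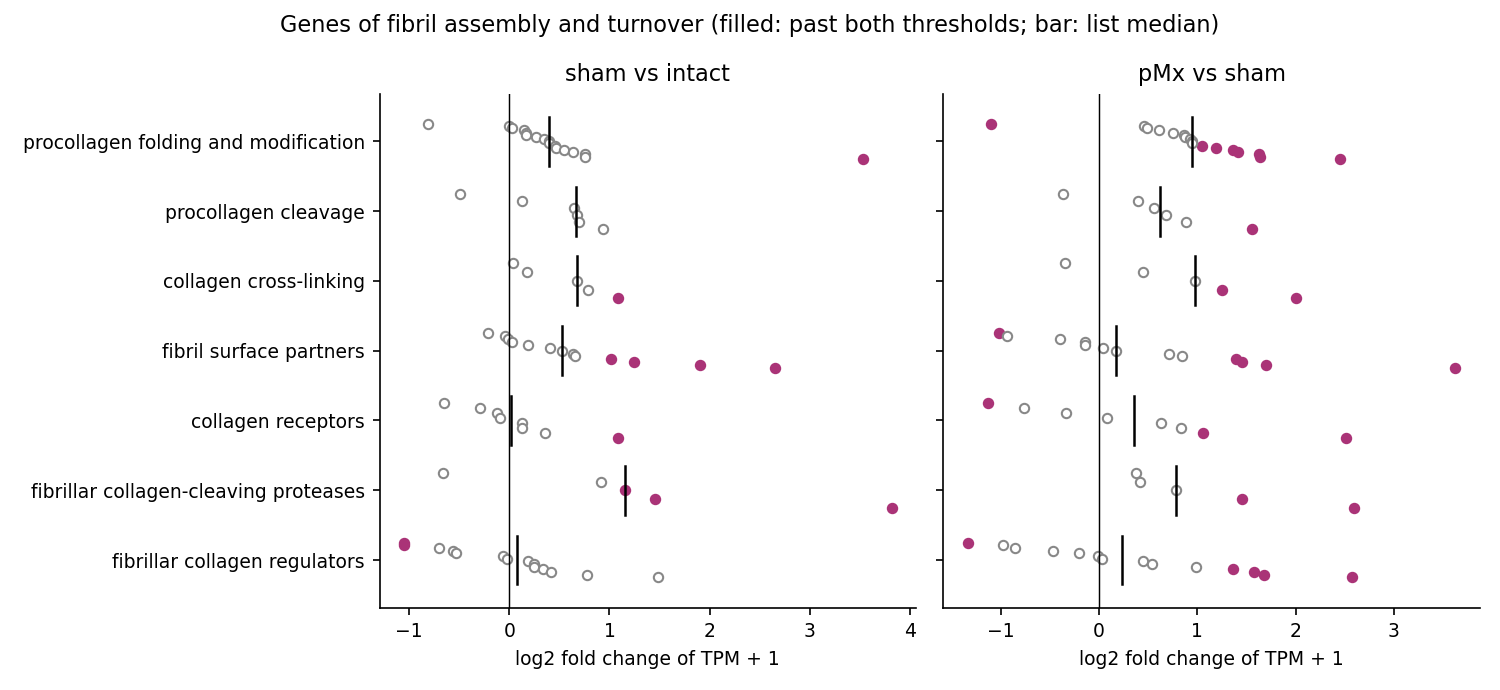
Log2 fold changes of TPM + 1 for genes of fibril assembly, surface, cell contact, turnover and regulation, with 1 point for each gene, filled where both thresholds were passed, and a bar at the median of each list. In pMx versus sham most folding genes lie to the right of 0, with a median of 0.95, while the fibril surface list spreads to both sides with a median of 0.17.

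Of 17 genes that fold and modify procollagen, 7 were called higher and 1 lower (P3h2, -1.11) in pMx versus sham. At an unadjusted p below 0.05 from limma 16 were higher and 1 lower, and the median log2 fold change was 0.95; in sham versus intact 1 was called, and the median was 0.40. P4ha3, a subunit of collagen prolyl 4-hydroxylase, was at 1.49 ± 0.252 TPM in intact libraries, 28.2 ± 6.27 TPM in sham libraries and 156 ± 5.23 TPM in pMx libraries (SD, n = 3 libraries each). It was the gene of this list called in both steps, with log2 fold changes of 3.53 and 2.45. P3h1, a prolyl 3-hydroxylase, Plod2, which hydroxylates telopeptide lysines, and Fkbp10, an endoplasmic reticulum chaperone, had log2 fold changes of 1.64, 1.63 and 1.41 in pMx versus sham, and for Plod2 that of sham versus intact was 0.00 (limma adjusted p = 0.991). Of 6 genes that cut off the end pieces, 1 was called higher in pMx versus sham, Adamts14 (1.56), an amino-end procollagen protease. Bmp1, the carboxy-end procollagen protease, its enhancer Pcolce and Adamts3 had log2 fold changes of 0.88, 0.68 and 0.56 there, under the threshold of 1, and the median of the list was 0.62. Of 5 cross-linking enzymes, 2 were called higher. Lox, the lysyl oxidase, rose from 32.9 ± 8.19 TPM in intact libraries to 70.1 ± 9.50 TPM in sham libraries and 282 ± 12.1 TPM in pMx libraries (SD, n = 3 libraries each), and Loxl2 had a log2 fold change of 1.25 in pMx versus sham. Loxl3 (0.97) and Loxl1 (0.45) were below the threshold of 1.

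Genes for proteins on the fibril surface did not move as a block. Of 13 tested, 4 were called higher and 1 lower (Col14a1, -1.02) in pMx versus sham, and 4 higher and none lower in sham versus intact, with medians of 0.17 and 0.52. The median of 0.17 was the value of Col9a3, which was at 0.88 to 2.59 TPM, and Col9a1 and Col9a2 were below 1 TPM in every library. At an unadjusted p below 0.05 from limma, 6 were higher and 3 lower in pMx versus sham. Bgn was at 0.84 there, under the threshold of 1, and was called higher in sham versus intact (1.01). The 4 largest changes in pMx versus sham were those of Col12a1 (3.63), which codes for a fibril-associated collagen, and of Lum (1.70), Aspn (1.46) and Fmod (1.40), which code for small leucine-rich proteoglycans that bind fibrils. Lum was at 580 ± 64.5, 2180 ± 385 and 7012 ± 157 TPM in the intact, sham and pMx groups (SD, n = 3 libraries each). Dcn, which codes for another of these proteoglycans, went the other way, at 4826 ± 626, 4683 ± 443 and 2441 ± 232 TPM. Its log2 fold change of -0.94 in pMx versus sham (limma adjusted p = 9.94e-04) fell short of the fold-change threshold. Of 8 collagen receptors, 2 were called higher and 1 lower in pMx versus sham, with a median of 0.35. Itga11, an integrin chain that binds fibrillar collagen, rose by 2.51 on the log2 scale, and Mrc2, an uptake receptor for collagen, by 1.06, whereas Ddr2, a collagen-activated kinase, fell by 1.13. Itga10 was at 0.83, under the threshold of 1. Of 5 proteases of fibrillar collagen tested, 3 were called higher in sham versus intact and 2 in pMx versus sham. Mmp13, an interstitial collagenase, was at 0.693 ± 0.326, 26.7 ± 17.5 and 143 ± 25.7 TPM in the intact, sham and pMx groups (SD, n = 3 libraries each), and Mmp14, a membrane-bound collagenase, had log2 fold changes of 1.45 in sham versus intact and 1.46 in pMx versus sham. Mmp2 was called in sham versus intact (1.15) and was at 0.78 in pMx versus sham; Mmp8 was at 0.42 (adjusted p = 0.188 from limma).

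Of 14 regulators of fibrillar collagen genes, 4 were called higher and 1 lower in pMx versus sham, with a median log2 fold change of 0.24, and none higher and 2 lower in sham versus intact. At an unadjusted p below 0.05 from limma, 7 were higher and 4 lower in pMx versus sham, and 5 higher and 4 lower in sham versus intact. Ccn2, a matricellular growth factor, was called lower in both (-1.34 and -1.05), and Barx1 in sham versus intact (-1.05). The genes called higher were Scx (2.57, adjusted p = 0.0107 from limma), Sox9 (1.68), the chondrocyte factor that acts on Col2a1 and Col11a1, and the bone factors Sp7 (1.58) and Runx2 (1.36). Sox9 and Sp7 were below 6 TPM in all libraries. Sox6 had a log2 fold change of -0.98 in pMx versus sham (limma adjusted p = 0.00130), just short of the threshold. In pMx versus intact 5 regulators were called higher and 5 lower, with Sox5 (-1.03) and Sox6 (-1.68) among the lower. For Scx, intact replicate 3 overlapped with the sham group.

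Some markers of other cell types also differed between pMx and sham. In sham versus intact, none of the adipocyte, lining or macrophage markers was called, and 2 fibroblast markers were called higher. At an unadjusted p below 0.05 from limma, 5 of 6 lining markers were lower there and 6 of 9 macrophage markers higher. All 8 adipocyte markers were called lower in pMx versus sham, and their summed level was 330 to 513 TPM in the pMx group against 4892 to 5331 TPM in the sham group and 3494 to 7795 TPM in the intact group. The largest falls were those of Adipoq (-7.36), Thrsp (-7.06), Cidec (-6.30) and Retn (-5.86), genes of fat storage and adipokines. Of 6 synovial lining markers, 4 were called lower in pMx versus sham, and their summed level was 4066 to 5436 TPM in intact libraries, 2203 to 3018 TPM in sham libraries and 1292 to 2036 TPM in pMx libraries. Clic5 and Htra4, which mark the lining layer, fell to 13.1 ± 4.20 and 82.3 ± 23.1 TPM after pMx (SD, n = 3 libraries each), with log2 fold changes of -4.09 and -3.19 from sham. Prg4 made up most of the lining sum in the pMx group and did not fall from sham. Its level was 1315 ± 118 TPM in sham libraries and 1453 ± 335 TPM in pMx libraries (SD, n = 3 libraries each). The log2 fold change of Prg4 was 0.12 (limma adjusted p = 0.681). Of 8 fibroblast markers, Lum and Thy1 were called higher and Pi16, Dpt and Fap lower in pMx versus sham. The summed fibroblast markers were at 1877 to 2431, 4053 to 4630 and 8841 to 9177 TPM in the intact, sham and pMx groups, and Lum made up most of this sum in the pMx group. Of 9 macrophage markers, 1 was called lower in pMx versus sham (Cd163, -2.24), with summed levels of 1202 to 1918, 2002 to 2045 and 1277 to 1798 TPM in the intact, sham and pMx groups, and of 14 skeletal muscle markers none was called in any of the comparisons (0 at an unadjusted p below 0.05 from limma). The RNA integrity that the study measured was also lowest in the intact group and highest in the pMx group, and the groups did not overlap. Its part in a difference therefore cannot be told apart from that of the group. The part of cell composition and of RNA integrity in the collagen values and in the chain ratios was not tested.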

How the data were processed

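RNA captured with oligo-dT beads was sequenced at BGI with a dUTP second strand. The submitters' processing notes name HISAT2 2.0.4 and the build mRatBN7.2; the counting tool, annotation and filters are not given in the sources used here. The authors deposited TPM values, computed in the Dr. Tom system and rounded to 2 decimals, for 9 libraries and 17602 genes. Every library sums to 1000000 TPM, so a rise in some genes lowers the values of others.

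Groups and replicate numbers came from the sample titles. From the deposited TPM, log2(TPM + 1) of genes above 0 in at least 3 libraries was fitted with limma 3.58.1 in R 4.3.3, 1 mean per group over all 9 libraries, with a mean-variance trend and Benjamini-Hochberg adjustment over all genes. The study states the thresholds but not its test. Ratios of chains, with no pseudocount, were tested by exact permutation in Python 3.11.15, and both calculations were tested on simulated data.

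The members and gene lists were chosen with earlier results of these data known. The genes named are the 10 members, up to 4 genes with the largest change of pMx versus sham in each list, markers at 0, and the 2 nearest profiles of each member, of which 1 is not reported here; Col11a2, Prg4, Loxl1 and other genes outside this rule were chosen after their values were seen. Alternatives covered pseudocount, filter, scaling, variance model, replicate number, threshold and leaving out each library. Protein sequences were not used here.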

Additional observations from a re-analysis of the deposited data

How the results depend on the processing

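The numbers of genes called in sham versus intact, pMx versus sham and pMx versus intact (7, 8 and 9 of 10) were 5 to 7, 8 to 9 and 9 with each library left out, and differed from the stated counts by no more than 1.5 times under all other alternatives. For the 9 genes other than Col2a1, 503 of 513 refits kept the direction and the call, 7 lost a call, 3 gained one and none reversed. Col2a1, which was called in no fit, reversed in pMx versus sham with a pseudocount of 0.1 (0.20), a pseudocount of 0.01 (0.35) and quantile normalization (0.10), and with each library left out ranged from -0.37 to 0.39 there, from -1.42 to 0.47 in sham versus intact and from -1.48 to 0.42 in pMx versus intact. With 1 TPM added to both chains, the log2 difference of pMx from intact was 1.18 for Col11a1 to Col5a1 and -4.23 for Col2a1 to Col1a1. That of Col24a1 to Col1a1 reversed to -0.74. In the test of the 3 groups together, the ratio of Col11a1 to Col5a1 then lost its call (exact permutation adjusted p = 0.0571). Those of Col2a1 and Col24a1 to Col1a1 gained one (adjusted p = 0.0193 and 0.0214). In the intact libraries Col24a1 was at 0.32, 0.47 and 1.55 TPM and Col2a1 at 16.14, 0.29 and 0.24 TPM. The added 1 TPM is larger than most of these values, so these ratios with it partly follow the level of Col1a1. With each library left out, the log2 difference of pMx from intact ranged from 1.12 to 2.00 for Col11a1 to Col5a1, from 0.37 to 0.54 for Col5a1 to Col1a1, from -1.45 to -1.26 for Col27a1 to Col1a1 and from -0.039 to 1.45 for Col24a1 to Col1a1. Same-numbered libraries deviated from their group means with correlations across genes of -0.664 to 0.485, and those of sham with pMx were 0.035, 0.368 and 0.485. With 3 libraries in each group the deviations are not independent, so these values cannot decide whether the numbers pair the samples. With the replicate block, 7, 8 and 9 genes were called, and 297, 1343 and 2350 of all genes against 323, 1355 and 2360 without it. Scalings moved the median of all genes by less than 0.1 on the log2 scale. Depth is unknown, which limits what can be said of Col2a1 and Col24a1 near or below 1 TPM.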
